A study of Rattus norvegicus with 9 samples.

Results

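The genes described here are 49 members of TGF-beta, BMP and activin signalling: 15 ligands, 12 receptors, 8 SMADs, 7 antagonists, 4 latent TGF-beta binding proteins and 3 ID genes. They were chosen by name with earlier results of these data known, so the list is not independent of the data. All 49 are among the 22589 genes listed in every library. The left tibias of 9 female Sprague-Dawley rats, out of 18 in the study, were sequenced: 3 sham-operated rats (Sham), 3 ovariectomised rats without exercise (NE/Ovx) and 3 ovariectomised rats with resistance exercise (RE/Ovx). The question was how resistance exercise acts on the bone of rats that lack their ovaries, a model of postmenopausal osteoporosis. Rats were bought at 9 weeks of age and operated on after 1 week of feeding. Sham rats lost a small piece of fat near the ovary, and NE/Ovx and RE/Ovx rats lost both ovaries. RE/Ovx rats had 2 weeks of adaptive training and then, from week 13 after the operation, 12 weeks of climbing on 5 days a week in 4 sets of 3 repetitions, with loads of 50, 75 and at last 100% of body weight. NE/Ovx rats had no exercise, and no sham-operated group was trained, so exercise was compared only among rats without ovaries. Each bone was freed of skin, muscle, ligament and tendon, and markers of bone, cartilage and marrow cells were all detected in the libraries.

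The ligands of this family are secreted dimers that bring type I and type II receptor kinases together on the target cell. TGF-beta and activin receptors phosphorylate SMAD2 and SMAD3, BMP receptors phosphorylate SMAD1, SMAD5 and SMAD9, and both kinds of SMAD enter the nucleus with SMAD4. TGF-beta is stored in bone matrix in a latent form bound by LTBP proteins and is released when osteoclasts resorb bone, while BMPs drive the differentiation of osteoblasts and chondrocytes and raise the ID genes in target cells.

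The libraries held between 12297992 and 16671533 counts, and TMM factors, which correct the totals for differences in composition, lay between 0.962 and 1.04. Of 18423 genes with any count, 14520 passed a filter on low counts. Levels within a gene are given as CPM, counts scaled to an effective library size of 1000000, and levels between genes as FPKM, which also divides by gene length. Osteoblast genes were detected in every rat, with all 12 of 12 markers tested. Their summed level was 7721 to 10874 CPM in Sham, 18238 to 29782 in NE/Ovx and 20190 to 32528 in RE/Ovx. The Sham sums lay below all Ovx sums, but not every marker rose. In NE/Ovx against Sham 3 of the 12 were called higher, and 6 were higher at an unadjusted p under 0.05. The lowest log2 fold change of a marker was -0.17 in NE/Ovx and -0.19 in RE/Ovx against Sham. Summed B cell markers were 200.2 to 604.9 CPM in Sham, 732.8 to 1184 in NE/Ovx and 889.2 to 1095 in RE/Ovx, with 0 and 3 of 12 called higher against Sham (9 and 11 at an unadjusted p under 0.05). Neutrophil sums were 7457 to 12505, 5546 to 6450 and 4039 to 6311 CPM, with 0 and 6 of 11 called lower, and erythroid sums were 62241 to 66664, 43256 to 55617 and 36449 to 59060 CPM, with 0 called but all 12 lower in sign. The sums of these 3 lists did not overlap between Sham and Ovx rats, whereas those of the osteoclast (1379 to 2225 CPM) and macrophage (475.3 to 798.2 CPM, Marco at 0) lists did. The part of these differences in the members' values was not tested. In a bulk library of the tibia, fewer cells of a type and less RNA per cell cannot be told apart.

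Of the 49 members, 46 passed the filter. Bmpr1b, a type I BMP receptor, had 1 to 15 counts per library. Smad9 had 2 to 11 counts, and Fstl3, a follistatin-like activin antagonist, had 2 to 14. These 3 were not tested in the main fit, and their differences are not described here because of the low counts. DESeq2 and the fit with no filter on low counts tested all 49 members.

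Per length, the TGF-beta arm had the most abundant ligand and receptors of the list. Tgfb1, the main TGF-beta of bone matrix, had the highest mean over the 9 rats at 64.4 FPKM, which was 66.0 ± 17.1 FPKM in Sham, 59.8 ± 5.57 in NE/Ovx and 67.5 ± 6.84 in RE/Ovx (SD, n = 3). The type II TGF-beta receptor Tgfbr2 followed at 51.5 FPKM, and then Smad4, the SMAD common to both arms, at 45.2 FPKM. Id3 (38.3 FPKM), Id2 (36.6 FPKM) and the coreceptor Tgfbr3 (28.1 FPKM) came next. Bmp3 was the second ligand at 7.48 FPKM. The lowest tested member was Gdf5, a joint and cartilage ligand, at 0.230 FPKM and 2 to 15 counts.

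**Figure D1:**
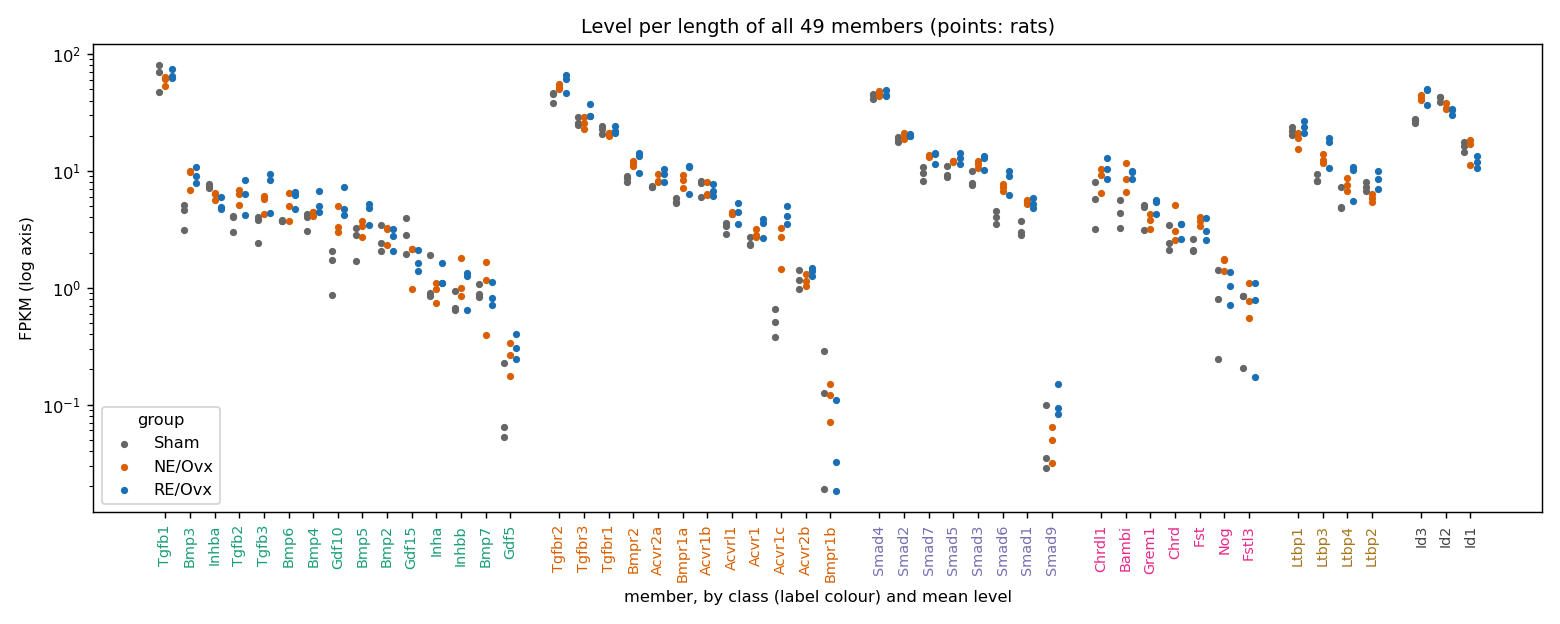
Level of each of the 49 members in each of the 9 rats, in FPKM on a log axis, with members ordered within their class by mean level; grey points are Sham, orange NE/Ovx and blue RE/Ovx rats. Tgfb1, Tgfbr2, Smad4, Id3 and Id2 stand at the top of their classes or near it, and Acvr1c separates the Sham rats (mean 0.518 FPKM) from the RE/Ovx rats (mean 4.21 FPKM).

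Compared with the Sham group, the NE/Ovx group had more RNA of a type I receptor, Acvr1c, and of a BMP SMAD, Smad1. These 2 members of the 46 rose past an adjusted p of 0.05, against 1.03% of all 14520 tested genes. No member fell, against 0.200% of all genes, and at an unadjusted p under 0.05 edgeR put 3 members lower (against 8.57% of all genes) and 16 higher (against 11.9%). All adjusted p values here are from edgeR's quasi-likelihood test with Benjamini-Hochberg adjustment over all tested genes. The study also required a fold change above 1.2 or below 0.83, and the same 16 (34.8%, against 11.3% of all genes) and 3 (6.52%, against 6.52%) met that too. The 3 lower members were Inhba, Ltbp2 and Id2. The NE/Ovx range lay wholly above the Sham range for 19 members (41.3%, against 13.9% of all genes) and wholly below it for 3 (6.52%, against 11.4%). Of the 46 log2 fold changes, 33 were positive (71.7%, against 50.4% of all genes) and 13 negative (28.3%, against 49.6%). The median log2 fold change was 0.33 over the members and 0.0029 over all tested genes. By class, the median was 0.30 for ligands, 0.20 for receptors, 0.39 for SMADs, 0.62 for antagonists, 0.055 for latency proteins and -0.094 for ID genes.

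Acvr1c encodes ALK7, a type I receptor for activin B and related ligands that is best known from adipocytes. With 9 counts in the lowest library and 143 in the highest, it had 1.31, 0.725 and 1.0 CPM in Sham rats 7, 8 and 12, then 2.72, 5.05 and 6.18 CPM in NE/Ovx rats 6, 8 and 9, and 6.59, 7.72 and 9.19 CPM in RE/Ovx rats 3, 5 and 8. The 3 groups did not overlap, with every Sham rat lowest and every RE/Ovx rat highest. The log2 fold change was 2.19 (SE 0.36, edgeR adjusted p = 0.0265) for NE/Ovx against Sham and 2.93 (SE 0.36, edgeR adjusted p = 0.00486) for RE/Ovx against Sham. The first call was lost when any of the 6 rats compared other than NE/Ovx rat 6 was left out (adjusted p up to 0.101) and when the 2 groups were fitted alone (0.0509), and the second was kept without each of its own 6 rats and with its 2 groups alone. Summed, the 12 adipocyte markers had 167.2 to 322 CPM in Sham, 486.4 to 621.6 in NE/Ovx and 605.9 to 847.8 in RE/Ovx. These sums overlapped between NE/Ovx and RE/Ovx, and the Acvr1c values did not. Not every marker rose in NE/Ovx against Sham, where the lowest log2 fold change was -1.09 and the median 1.35. The lowest was 0.69 in RE/Ovx against Sham (median 1.60) and -0.020 in RE/Ovx against NE/Ovx (median 0.44). At an unadjusted p under 0.05 in edgeR, 11 markers were higher in NE/Ovx against Sham. Of the 12, 5 were called higher in NE/Ovx and 11 in RE/Ovx against Sham. None was at 0 in every library, and their part in the Acvr1c values was not tested.

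Smad1, which carries the BMP signal, had 29.6, 35.9 and 27.7 CPM in Sham, 53.8, 49.05 and 51.6 in NE/Ovx and 45.6, 49.4 and 53.5 in RE/Ovx. All rats without ovaries stood above all Sham rats, and the 2 Ovx groups overlapped. The log2 fold change was 0.73 (SE 0.11, edgeR adjusted p = 0.0239) for NE/Ovx against Sham and 0.67 (SE 0.11, edgeR adjusted p = 0.0139) for RE/Ovx against Sham. The NE/Ovx call was kept only without Sham rat 8 among the fits that leave out a rat (adjusted p up to 0.0912) and was missed by limma on log2(FPKM + 1) (0.0502), and the RE/Ovx call was lost without RE/Ovx rat 5 or 8 (up to 0.0582). Its partner Smad5 had 84.4, 101.4 and 86.7 CPM in Sham, 110.7, 106.5 and 113 in NE/Ovx and 104.8, 115.5 and 123.9 in RE/Ovx. It did not pass the test in NE/Ovx (log2 fold change 0.28, edgeR adjusted p = 0.153) or RE/Ovx (0.34, edgeR adjusted p = 0.0601), although the Sham rats lay below all others. Smad3, of the TGF-beta arm, had 0.39 in NE/Ovx (edgeR adjusted p = 0.154) and 0.46 in RE/Ovx (edgeR adjusted p = 0.0666) against Sham. Its ranges were apart from Sham in NE/Ovx and overlapped in RE/Ovx. Smad2 had 0.056 and 0.074 in these comparisons, with overlapping ranges. Smad4 had group means of 137.3 ± 4.91, 139.5 ± 4.14 and 137.5 ± 5.65 CPM (SD, n = 3) in Sham, NE/Ovx and RE/Ovx. Its 9 values lay between 131.6 CPM in Sham rat 7 and 144.2 CPM in NE/Ovx rat 8.

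Smad6 and Smad7 encode the inhibitory SMADs, which BMP and TGF-beta signals induce and which then block the receptors. Smad6 had 11.1, 13.8 and 12.6 CPM in Sham, 20.3, 23.2 and 22.2 in NE/Ovx and 18.7, 30.2 and 26.5 in RE/Ovx. Every Sham rat stood below every other rat, and RE/Ovx rat 3 was the lowest of the Ovx rats. It rose in RE/Ovx against Sham, with a log2 fold change of 1.01 (SE 0.17, edgeR adjusted p = 0.0143), and had 0.81 (SE 0.17, edgeR adjusted p = 0.0572) in NE/Ovx against Sham. Without RE/Ovx rat 5 or 8 the call was lost (adjusted p up to 0.0587). Smad7 had 42.0 ± 5.24, 57.7 ± 2.18 and 55.9 ± 5.72 CPM (SD, n = 3) in the 3 groups, and its log2 fold change of 0.46 in NE/Ovx did not pass (edgeR adjusted p = 0.0758). Endothelial cells are a known site of Smad6, and 12 endothelial markers summed to 476.2 to 495.7 CPM in Sham, 507.3 to 557 in NE/Ovx and 533.2 to 672.2 in RE/Ovx, with 0 and 2 of the 11 tested called higher against Sham (2 and 6 at an unadjusted p under 0.05 in edgeR). None was at 0 in every library, and their part in the Smad6 values was not tested.

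**Figure D2:**
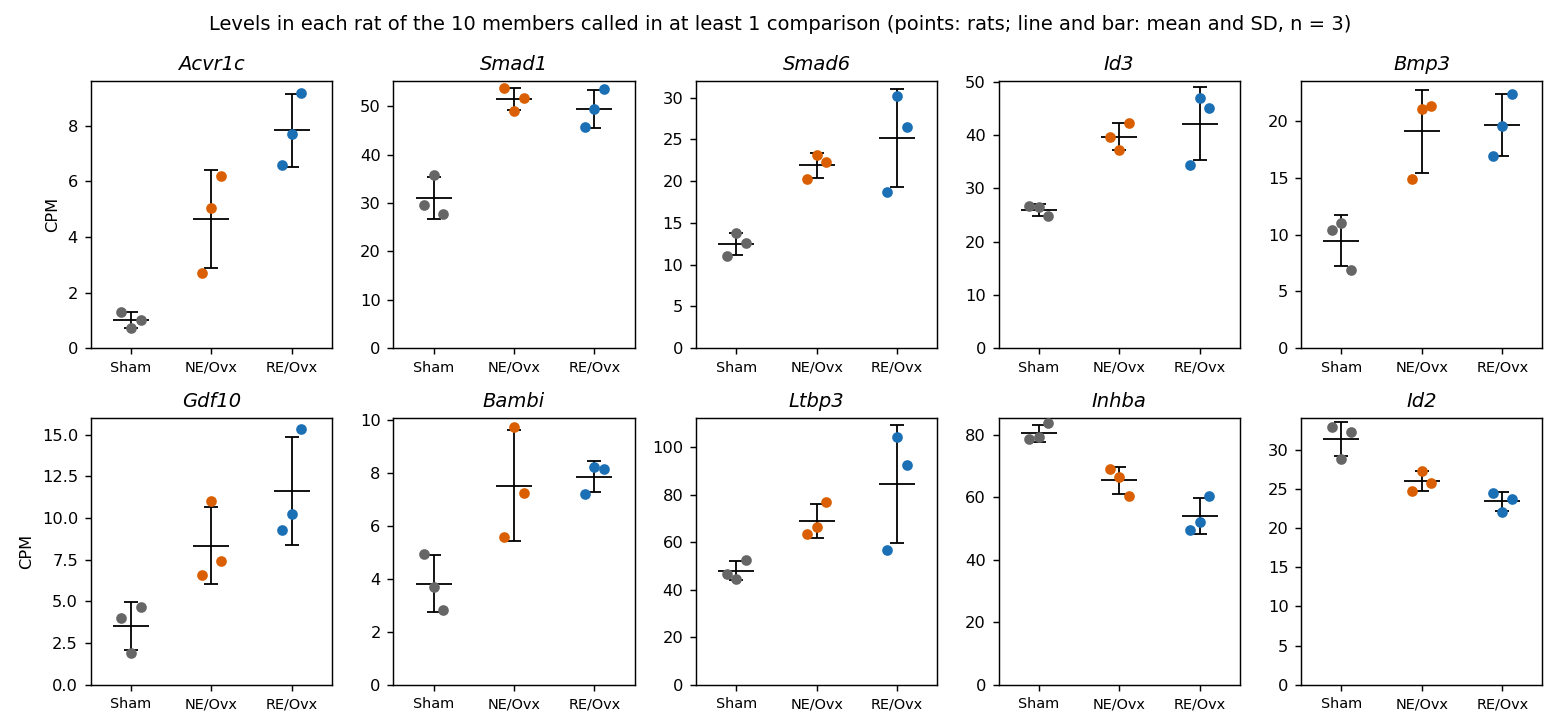
CPM of the 10 members that passed an adjusted p of 0.05 in at least 1 comparison, with a point for each rat and the mean and SD of each group of 3. The 8 higher members have all Sham rats below all Ovx rats, and Inhba and Id2 have them above.

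In the RE/Ovx group, trained rats without ovaries, 10 members differed from Sham. Against 5.0% of all genes higher, 8 of 46 rose: the ligands Bmp3 and Gdf10, the receptor Acvr1c, Smad1, Smad6, the decoy receptor Bambi, Ltbp3 and Id3. Against 3.06% of all genes lower, 2 of 46 fell, the activin subunit Inhba and Id2. The thresholds of the study were passed by 26 members (56.5%) in the higher direction, against 14.0% of all genes, and by 3 (6.52%) in the lower direction, against 9.17%. Without the fold limit these were 14.4% and 11.1% of all genes for the same 26 and 3 members. Ranges were apart in the higher direction for 18 members (39.1%, against 14.9%) and in the lower direction for 3 (6.52%, against 13%), and 37 log2 fold changes were positive (80.4%, against 48.9%) and 9 negative (19.6%, against 51.1%). The median log2 fold change was 0.38 over the members and -0.0078 over all genes. NE/Ovx and RE/Ovx were both compared with the same 3 Sham rats, so the similarity of these comparisons is not independent. The count of 10 (8.06% of all genes called) was 1 without RE/Ovx rat 5 (0.701% of all genes) and 2 without RE/Ovx rat 8 (0.703%). It was 21 without RE/Ovx rat 3 (11.9%). That rat was the lowest of its group in 38 of the 46 members. Leaving it out raises the RE/Ovx means by construction, and the 21 supports nothing. The count was 8, 9 and 8 without Sham rats 7, 8 and 12 (4.09%, 5.75% and 5.21%).

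Among the ligands, Bmp3, an abundant BMP of bone that opposes osteogenic BMPs, had 10.5, 11.04 and 6.92 CPM in Sham, 14.9, 21.1 and 21.3 in NE/Ovx and 16.96, 19.6 and 22.4 in RE/Ovx. The Sham rats lay below all others. Its log2 fold change was 1.01 (SE 0.21, edgeR adjusted p = 0.0510) in NE/Ovx and 1.05 (SE 0.21, edgeR adjusted p = 0.0204) in RE/Ovx. The closely related Gdf10 had 3.99, 1.93 and 4.67 CPM in Sham, 6.61, 11 and 7.45 in NE/Ovx and 9.29, 10.2 and 15.4 in RE/Ovx. Again no Sham rat reached the level of an Ovx rat. It rose by a log2 fold change of 1.72 (SE 0.34, edgeR adjusted p = 0.0195) in RE/Ovx, and had 1.24 (SE 0.34, edgeR adjusted p = 0.0920) in NE/Ovx. Leaving out RE/Ovx rat 5 or 8 ended both RE/Ovx calls, with adjusted p values of at most 0.0808 for Bmp3 and 0.0787 for Gdf10. The sums of 12 listed cartilage markers were 837 to 1776 CPM in Sham, 2036 to 3186 in NE/Ovx and 2811 to 2967 in RE/Ovx. None was at 0 in every library, and 2 and 6 of the 11 tested were called higher against Sham. At an unadjusted p under 0.05 in edgeR, 10 of the 11 were higher in NE/Ovx against Sham. The lowest log2 fold change of a tested marker against Sham was 0.57 in NE/Ovx and 0.89 in RE/Ovx. The part of cartilage or osteoblast RNA in the Bmp3 and Gdf10 values was not tested.

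Inhba encodes the subunit of activin A and went the other way. It had 78.7, 79.1 and 83.7 CPM in Sham, 69.0, 66.6 and 60.54 in NE/Ovx and 49.6, 52.0 and 60.45 in RE/Ovx. The 3 groups did not overlap, although the highest RE/Ovx rat and the lowest NE/Ovx rat were nearly level. Inhba fell in RE/Ovx against Sham (log2 fold change -0.57, SE 0.096, edgeR adjusted p = 0.0135), a call lost without RE/Ovx rat 5 (adjusted p = 0.0577). In NE/Ovx against Sham it was -0.30 (SE 0.096, edgeR adjusted p = 0.128). The other activin and inhibin subunits were low: Inhbb had 2.40 ± 0.541, 3.77 ± 1.63 and 3.30 ± 1.11 CPM and Inha 1.76 ± 0.863, 1.31 ± 0.256 and 1.76 ± 0.454 CPM (SD, n = 3) in Sham, NE/Ovx and RE/Ovx.

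The most abundant ligand did not follow either pattern. Tgfb1 had 121.8, 103.7 and 70.3 CPM in Sham, 89.7, 76.9 and 94.5 in NE/Ovx and 93.5, 90.5 and 105.4 in RE/Ovx. The Sham rats alone spanned all the other values, and the log2 fold change was -0.18 (SE 0.17, edgeR adjusted p = 0.593) in NE/Ovx and -0.033 (SE 0.17, edgeR adjusted p = 0.934) in RE/Ovx against Sham. The second of these turned positive when library totals replaced TMM factors (0.031) and in limma on FPKM (0.061 to 0.062). Megakaryocytes and platelets are rich in Tgfb1, and 12 of their markers summed to 1177 to 1634 CPM in Sham, 952.3 to 1123 in NE/Ovx and 978.4 to 1176 in RE/Ovx, with Gp1bb at 0 in every library. Of the 11 tested, all were lower in sign in both comparisons with Sham. In NE/Ovx 8 were lower at an unadjusted p under 0.05 and 0 were called, in RE/Ovx 5 were lower and 3 called, and their part in the Tgfb1 values was not tested. Tgfb2 and Tgfb3 had log2 fold changes of 0.69 (SE 0.23, edgeR adjusted p = 0.0970) and 1.04 (SE 0.29, edgeR adjusted p = 0.0576) in RE/Ovx against Sham. Bmp5 had 12.6, 6.29 and 10.8 CPM in Sham, 9.99, 13.8 and 12.8 in NE/Ovx and 12.8, 17.9 and 18.4 in RE/Ovx, so that Sham and NE/Ovx overlapped. It did not pass in RE/Ovx against Sham (0.72, SE 0.25, edgeR adjusted p = 0.106). Bmp2, Bmp4, Bmp6, Bmp7, Gdf5 and Gdf15, the last a stress-induced member of the family, also passed in none of the 3 comparisons, with log2 fold changes against Sham between -0.82 (Gdf15) and 1.42 (Gdf5) in RE/Ovx.

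Of the 11 tested receptors, 10 did not pass in any comparison. Tgfbr2 had 245.5, 240.7 and 202.4 CPM in Sham, 271.1, 257.3 and 292.7 in NE/Ovx and 237.9, 316.4 and 331 in RE/Ovx. RE/Ovx rat 3 lay within the Sham range, and the RE/Ovx difference from Sham was 0.36 on the log2 scale (SE 0.13, edgeR adjusted p = 0.121). Over the fits that leave out 1 rat, the edgeR adjusted p ran from 0.0239, without RE/Ovx rat 3, to 0.358. That rat was the lowest of its group, so leaving it out raises the RE/Ovx mean by construction, and the lower value supports nothing. The type II BMP receptor Bmpr2 had 95.3, 85.0 and 97.4 CPM in Sham, 114.8, 124.4 and 123.9 in NE/Ovx and 99.0, 146.3 and 133.5 in RE/Ovx. Here every Ovx rat exceeded every Sham rat, with a log2 fold change of 0.45 (SE 0.13, edgeR adjusted p = 0.0667) in RE/Ovx against Sham. The type I BMP receptor Bmpr1a had group means of 20.7 ± 1.38, 30.0 ± 4.18 and 33.6 ± 9.09 CPM (SD, n = 3) and an adjusted p of 0.0551 in the same edgeR comparison. The type I TGF-beta receptor Tgfbr1 and the activin receptor Acvr1b were lower in mean, at -0.075 and -0.17 on the log2 scale, with overlapping groups.

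Antagonists bind ligands outside the cell or, like Bambi, act as a receptor without a kinase. Bambi had 4.95, 3.71 and 2.83 CPM in Sham, 5.58, 9.75 and 7.27 in NE/Ovx and 7.20, 8.25 and 8.16 in RE/Ovx. No Sham rat reached the Ovx rats. Its log2 fold change was 0.97 (SE 0.26, edgeR adjusted p = 0.0892) in NE/Ovx and 1.03 (SE 0.26, edgeR adjusted p = 0.0402) in RE/Ovx against Sham. Leaving out Sham rat 8 or 12 or RE/Ovx rat 5 or 8, or fitting the 2 groups alone, ended the latter call (largest adjusted p 0.133). Follistatin, the product of Fst, binds activin and had 6.33, 6.04 and 7.75 CPM in Sham, 9.69, 11.4 and 10.8 in NE/Ovx and 7.33, 8.71 and 11.1 in RE/Ovx. The NE/Ovx rats were above all Sham rats (log2 fold change 0.67, SE 0.19, edgeR adjusted p = 0.102), and RE/Ovx rat 3 fell within the Sham range. Chrdl1, a chordin-like BMP binder and the most abundant antagonist per length (8.29 FPKM), had 34.7, 24.1 and 13.6 CPM in Sham, 26.8, 37.5 and 43.8 in NE/Ovx and 34.9, 42.5 and 51.2 in RE/Ovx. Sham rat 7 reached into the NE/Ovx range, and neither comparison with Sham passed (edgeR adjusted p = 0.311 and 0.119). Noggin RNA (Nog) was scarce, at 2.41, 0.403 and 1.33 CPM in Sham, 2.86, 2.77 and 2.30 in NE/Ovx and 1.14, 2.22 and 1.61 in RE/Ovx. The Sham rats spanned the RE/Ovx range, and all NE/Ovx rats were above all RE/Ovx rats. Grem1, encoding gremlin, had 19.4, 19.5 and 12.2 CPM in Sham, 12.04, 14.2 and 16.6 in NE/Ovx and 16.3, 20.6 and 20.5 in RE/Ovx, with overlapping groups throughout. Chrd, which encodes chordin, had 10.1 ± 2.66, 13.1 ± 4.82 and 11.7 ± 1.85 CPM (SD, n = 3).

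**Figure D3:**
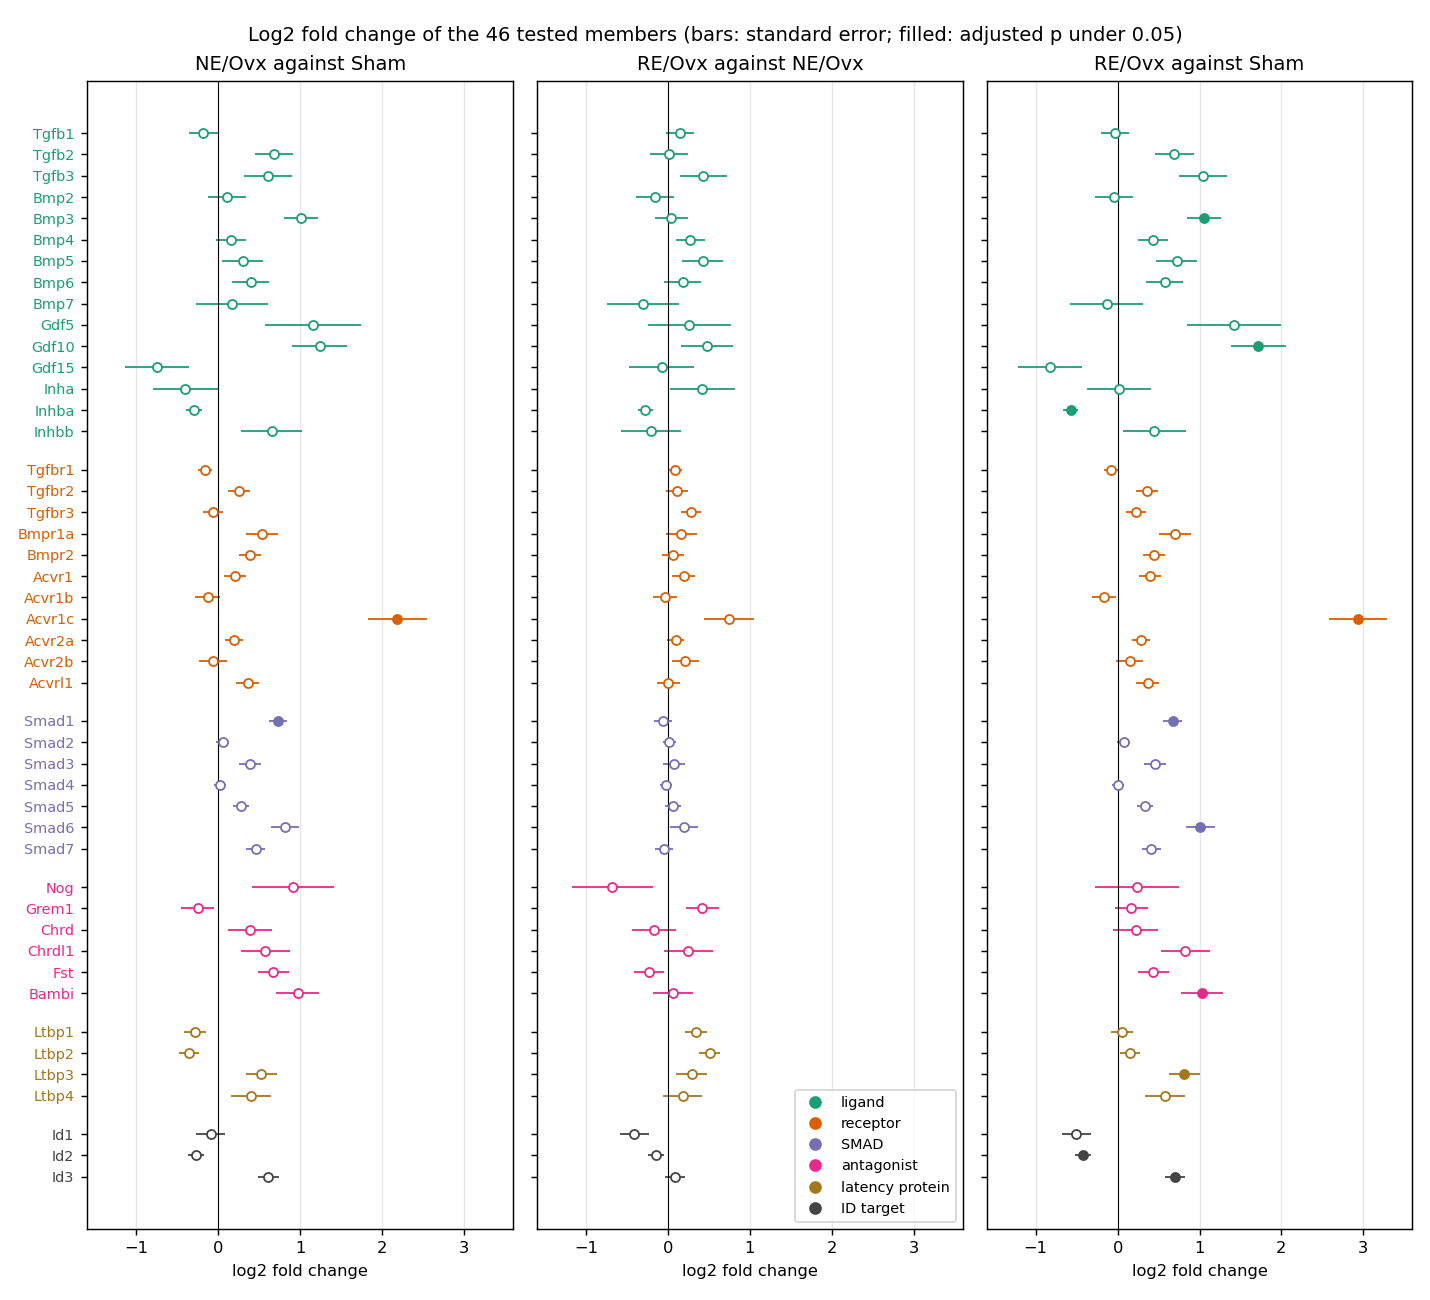
Log2 fold change of each of the 46 tested members in each of the 3 comparisons, coloured by class, with bars for the standard error and filled points for an adjusted p under 0.05. Filled points number 2 in NE/Ovx against Sham, 0 in RE/Ovx against NE/Ovx and 10 in RE/Ovx against Sham, with Acvr1c farthest to the right at 2.93.

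The LTBP proteins anchor latent TGF-beta in the matrix, and 1 of their 4 genes passed a test. Ltbp3 had 46.8, 44.6 and 52.3 CPM in Sham, 63.5, 66.4 and 76.9 in NE/Ovx and 56.6, 104 and 92.4 in RE/Ovx. All Ovx rats were above all Sham rats, with RE/Ovx rat 3 nearest to them. It rose in RE/Ovx against Sham (log2 fold change 0.82, SE 0.19, edgeR adjusted p = 0.0333), a call lost when any of the 6 rats compared other than RE/Ovx rat 3 was left out (adjusted p up to 0.125) and with the 2 groups fitted alone. Ltbp2, which binds fibrillin but not latent TGF-beta, had 51.6, 54.9 and 46.5 CPM in Sham, 42.7, 39.6 and 37.2 in NE/Ovx and 47.5, 57.2 and 65.3 in RE/Ovx. The NE/Ovx rats were the 3 lowest of the 9, and Sham and RE/Ovx overlapped. Its log2 fold change was -0.36 (SE 0.12, edgeR adjusted p = 0.153) for NE/Ovx against Sham and 0.51 (SE 0.12, edgeR adjusted p = 0.920) for RE/Ovx against NE/Ovx. Ltbp1 had 155.5, 138 and 130.7 CPM in Sham, 96.4, 118 and 133.5 in NE/Ovx and 167.3, 131.4 and 142.1 in RE/Ovx, with NE/Ovx rat 9 inside both other ranges. Ltbp4 had 32.6 ± 8.09, 42.8 ± 4.94 and 48.5 ± 15.5 CPM (SD, n = 3) and did not pass.

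The ID genes encode partners of helix-loop-helix factors that cannot bind DNA, and they are textbook BMP targets. Id3 rose and Id2 fell in RE/Ovx against Sham. Id3 had 26.8, 26.4 and 24.7 CPM in Sham, 39.6, 37.3 and 42.3 in NE/Ovx and 34.4, 47.1 and 45.03 in RE/Ovx. The Sham rats were tightly grouped below all others. Its log2 fold change was 0.61 (SE 0.13, edgeR adjusted p = 0.0502) in NE/Ovx, just outside the threshold, and 0.70 (SE 0.13, edgeR adjusted p = 0.0154) in RE/Ovx, where the call was lost without RE/Ovx rat 5 or 8 (adjusted p up to 0.0657). Id2 had 32.9, 28.8 and 32.2 CPM in Sham, 24.7, 27.3 and 25.8 in NE/Ovx and 24.5, 22.1 and 23.6 in RE/Ovx. The 3 groups did not overlap. Its log2 fold change was -0.27 (SE 0.099, edgeR adjusted p = 0.165) in NE/Ovx and -0.42 (SE 0.099, edgeR adjusted p = 0.0329) in RE/Ovx against Sham, and leaving out Sham rat 7 or 12 or RE/Ovx rat 5 or 8, using library totals or fitting the 2 groups alone ended the RE/Ovx call (largest adjusted p 0.130). Id1 had 28.7, 30.8 and 34.1 CPM in Sham, 21.1, 34.2 and 32.2 in NE/Ovx and 19.8, 22.1 and 24.1 in RE/Ovx. All RE/Ovx rats were below all Sham rats, while NE/Ovx rat 6 stood with the RE/Ovx rats. The RE/Ovx difference from Sham was -0.50 on the log2 scale (SE 0.17, edgeR adjusted p = 0.104).

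Resistance exercise itself was addressed by RE/Ovx against NE/Ovx, and no member passed the adjusted threshold. With edgeR, 0 of 46 were called in either direction, against 0.00% of all genes higher and 0.00% lower. DESeq2 (0.0381% of all genes called), edgeR on the 2 groups (0.00696%) and limma (0.00%) also called 0 members. At an unadjusted p under 0.05 there were 6 members, all of which also passed the fold thresholds of the study: Tgfbr3, Acvr1c, Ltbp1 and Ltbp2 were higher (8.70%, against 1.71% of all genes by p alone and 1.54% with the fold), and Inhba and Id1 were lower (4.35%, against 3.57% and 3.15%). The 6 were set against 4.68% of all genes past both limits. Leaving out NE/Ovx rat 6 or 8 brought the number to 2 and 1 (3.27% and 3.93% of all genes). Leaving out RE/Ovx rat 5 or 8 brought it to 3 and 4 (3.66% and 3.67%), and leaving out RE/Ovx rat 3 to 10 (6.98%). RE/Ovx rat 3 was the lowest of its group for most members, so its removal raises the RE/Ovx means by construction. The 10 therefore supports nothing. The smallest p was that of Ltbp2, 0.00214 before adjustment. Positive log2 fold changes numbered 32 (69.6%, against 51.8% of all genes) and negative ones 14 (30.4%, against 48.2%). The median log2 fold change was 0.088 over the members and 0.0079 over all genes. It was 0.32 for latency proteins, 0.15 for ligands, 0.11 for receptors, 0.018 for SMADs, -0.054 for antagonists and -0.15 for ID genes. In the same comparison all 12 skeletal muscle markers were lower in sign, with 9 at an unadjusted p under 0.05, 0 called and a median log2 fold change of -0.97. Their sums did not overlap, at 13179 to 16751 CPM in NE/Ovx and 6301 to 9459 in RE/Ovx, and the Sham rats spanned 4927 to 14891 CPM. Of the 10 interferon response genes 4 were lower at an unadjusted p under 0.05, and the part of either list in the members' values was not tested.

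For Acvr1c, the log2 fold change of RE/Ovx against NE/Ovx was 0.75 (SE 0.31, edgeR adjusted p = 0.924), and 3 of the 12 adipocyte markers were higher at an unadjusted p under 0.05 in the same comparison. For Inhba it was -0.27 (SE 0.096, edgeR adjusted p = 0.920), and for Id1 -0.41 (SE 0.17, edgeR adjusted p = 0.924). Tgfbr3, or betaglycan, presents TGF-beta2 and inhibin to the signalling receptors. It had 117.9, 101.1 and 99.6 CPM in Sham, 90.4, 100.7 and 114.7 in NE/Ovx and 115.3, 114.4 and 141.7 in RE/Ovx, and NE/Ovx rat 9 overlapped the RE/Ovx range. The groups did not overlap for 2 members in the higher direction (Acvr1c and Ltbp2, against 4.75% of all genes) and 3 in the lower direction (Inhba, Nog and Id2, against 6.84%). With 3 rats against 3, an exact permutation test of a single gene cannot go below p = 0.1.

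The members varied within the Ovx groups in a shared way. RE/Ovx rat 3 was the lowest of its group in 38 of the 46 members (82.6%), against 39.8% of all tested genes. NE/Ovx rat 6 was the lowest of its group in 30 members (65.2%), against 32.5% of all genes. RE/Ovx rat 8 was the highest of its group in 25 members (54.3%, against 34.7%). Both low rats also had the highest summed level of 10 interferon response genes in their group, at 2402 CPM in NE/Ovx rat 6 against 769.5 and 1150 CPM, and 1611 CPM in RE/Ovx rat 3 against 741.1 and 724.1 CPM. Both had the lowest osteoblast sum of their group, at 18238 and 20190 CPM, and the lowest endothelial sum, at 507.3 and 533.2 CPM. The adipocyte sums (486.4 and 605.9 CPM) and cartilage sums (2036 and 2811 CPM) of these rats were the lowest of their groups too. The part of these differences in the members' values was not tested. With both rats left out, an alternative chosen after these values were seen, 6 members were called in NE/Ovx against Sham (1.66% of all genes), 20 in RE/Ovx against Sham (10.4%) and 0 in RE/Ovx against NE/Ovx. These rats were the lowest of their groups for most members, so leaving them out raises the Ovx means by construction, and these counts support nothing.

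**Figure D4:**
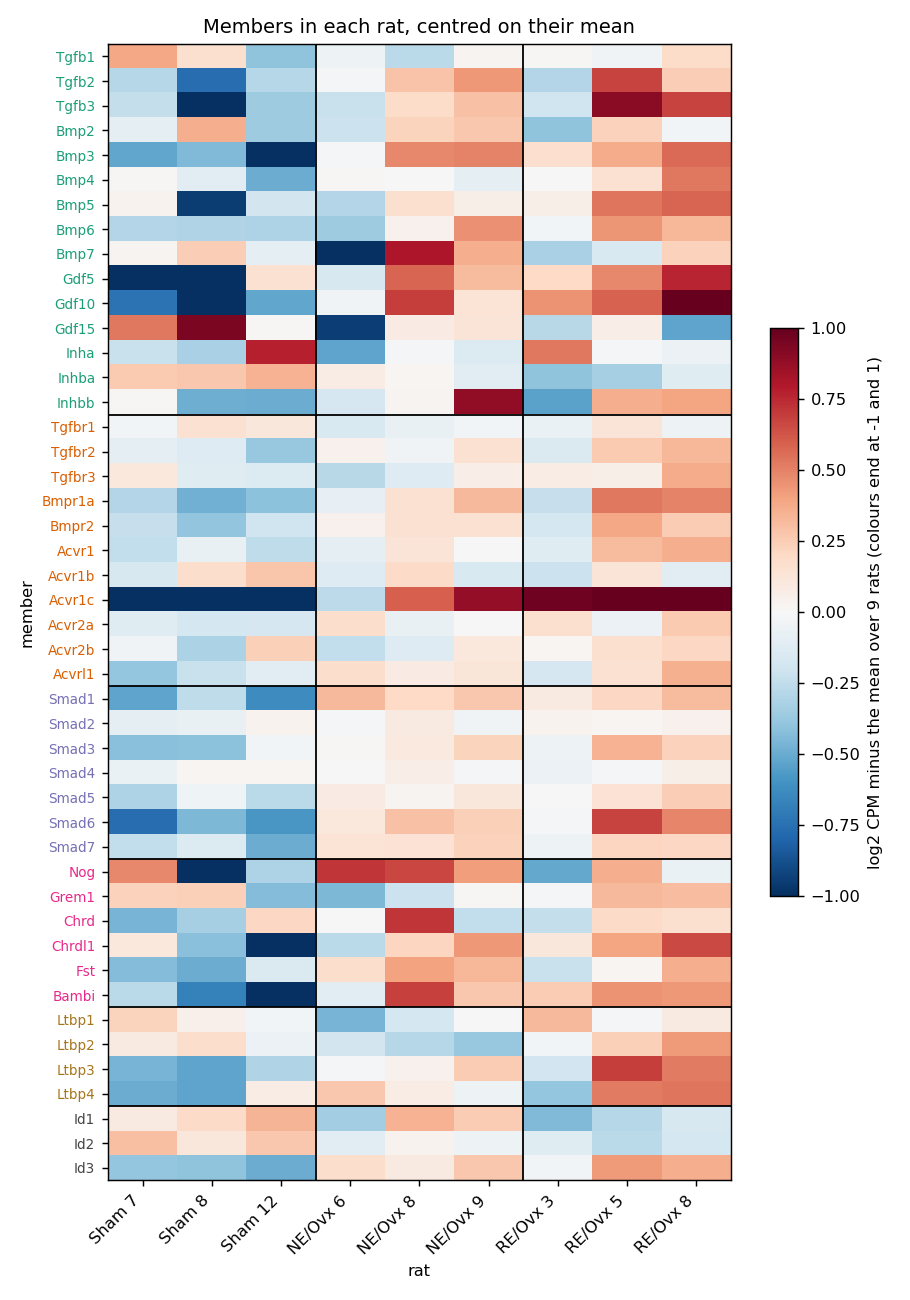
Log2 CPM of each of the 46 tested members minus its mean over the 9 rats, with a column for each rat, red above and blue below the mean; the colours end at -1 and 1. Acvr1c, Smad1, Smad6 and Id3 are blue and Inhba and Id2 red in every Sham column, and the median over the members is -0.067 in NE/Ovx rat 6 and -0.051 in RE/Ovx rat 3, against 0.092 to 0.32 in the other Ovx rats.

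Of the 10 called members, 9 had a promoter entry, and 4 of these are shown. Gdf10 and Bambi are the 2 of the 9 that hold GGCGCC, Gdf10 being also the 1 that holds CAGAC, and Id3 and Id2 are the called ID genes, which hold neither. Each sequence is the 250 bases before the start of the gene in RefSeq on the rat assembly GRCr8, in the direction of the gene. Capitals mark GGCGCC, a GC-rich SMAD site of BMP targets that reads the same on both strands, and CAGAC, which holds the SMAD-binding letters and reads GTCTG on the other strand. The windows are Gdf10 at chr16:9243262-9243511 (+ strand), Bambi at chr17:58821004-58821253 (- strand), Id3 at chr5:153656041-153656290 (+ strand) and Id2 at chr6:47470996-47471245 (- strand).
Gdf10: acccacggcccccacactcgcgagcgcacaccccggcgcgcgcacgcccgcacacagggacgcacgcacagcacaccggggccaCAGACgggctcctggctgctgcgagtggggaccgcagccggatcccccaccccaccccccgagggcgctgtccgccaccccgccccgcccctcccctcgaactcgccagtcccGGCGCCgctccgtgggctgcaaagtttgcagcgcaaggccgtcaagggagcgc
Bambi: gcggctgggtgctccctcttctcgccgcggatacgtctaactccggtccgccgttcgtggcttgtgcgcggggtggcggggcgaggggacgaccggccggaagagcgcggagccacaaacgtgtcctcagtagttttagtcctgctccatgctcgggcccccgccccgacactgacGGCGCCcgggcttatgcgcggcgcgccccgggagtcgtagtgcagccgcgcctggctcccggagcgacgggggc
Id3: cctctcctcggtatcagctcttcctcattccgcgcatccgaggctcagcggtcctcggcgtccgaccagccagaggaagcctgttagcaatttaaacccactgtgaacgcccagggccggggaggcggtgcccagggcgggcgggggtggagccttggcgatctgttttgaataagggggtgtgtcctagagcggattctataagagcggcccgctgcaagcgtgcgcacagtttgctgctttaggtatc
Id2: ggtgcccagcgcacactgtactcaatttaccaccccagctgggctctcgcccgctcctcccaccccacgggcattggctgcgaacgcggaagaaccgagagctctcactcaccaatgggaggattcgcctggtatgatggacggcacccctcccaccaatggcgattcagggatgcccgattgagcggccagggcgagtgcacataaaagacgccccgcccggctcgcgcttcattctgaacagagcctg
The Gdf10 window holds GGCGCC 53 bases and CAGAC 166 bases before the start, and the Bambi window holds GGCGCC 74 bases before it. The windows of Id2 and Id3 hold neither, which says only that these letters are absent here. Of 33469 rat promoters of the same length, 8.69% hold GGCGCC and 42.9% hold CAGAC on either strand. Among the 41 members with an entry, 12 (29.3%) hold GGCGCC and 9 (22.0%) hold CAGAC. Members were counted by gene, with a match in any entry of the gene, and the 33469 promoters by entry. The shares are therefore not in the same unit. The palindrome GTCTAGAC is in 0.173% of all promoters and in 0 of the 41. Promoter windows of this kind differ in base composition, which was not matched, and a match is not a site.

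Of 82 symbols for other genes of the pathway, 80 are listed and 59 were tested. Hfe2 and Ctgf are listed under these older names, and their newer symbols Hjv and Ccn2 are not. Against Sham, edgeR called 0 in NE/Ovx (against 1.03% of all genes higher and 0.200% lower), with 18 higher (30.5%, against 11.9%) and 3 lower (5.08%, against 8.57%) at an unadjusted p under 0.05. In RE/Ovx it called 5 higher (8.47%, against 5.0%) and 0 lower (against 3.06%). Those 5 were Dlx5, an osteoblast transcription factor induced by BMP (log2 fold change 1.22, edgeR adjusted p = 0.0225), Fbn1, the fibrillin to which LTBP proteins attach (0.60, adjusted p = 0.0240), Itgb8, an integrin chain that releases latent TGF-beta (1.05, adjusted p = 0.0372), the ligand Gdf11 (0.63, adjusted p = 0.0422) and Pmepa1, an inhibitor of TGF-beta signalling (1.14, adjusted p = 0.0480). Fbn1 had 225.8, 193.9 and 201.1 CPM in Sham, 248.9, 274.7 and 293.4 in NE/Ovx and 261.1, 315.1 and 362.8 in RE/Ovx, so that no Sham rat reached the Ovx rats. In RE/Ovx against NE/Ovx edgeR called 0 (against 0.00% of all genes), with 1 higher (1.69%, against 1.71%) and 2 lower (3.39%, against 3.57%) at an unadjusted p under 0.05. The median log2 fold changes were 0.18 in NE/Ovx against Sham, 0.083 in RE/Ovx against NE/Ovx and 0.26 in RE/Ovx against Sham.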

How the data were processed

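Total RNA of the left tibia of 9 rats, 3 per group as given by the sample titles, was depleted of ribosomal RNA and sequenced on a NovaSeq with a stranded kit. For each gene the authors deposited the read count as a whole number and an FPKM value, which within a library equals the count divided by gene length up to 1 factor. Per the submitters' notes, Bowtie2, DESeq, HISAT2, StringTie and Trimmomatic were used with the build Rnor_6.0, and no versions are named. The sources used here do not say if reads were counted by strand, so overlapping or antisense genes may share reads, as may close paralogs.

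Counts of all 9 libraries were fitted together in R 4.3.3 with edgeR 4.0.16 (TMM, filterByExpr, quasi-likelihood test, group as the only term), with Benjamini-Hochberg adjustment over 14520 genes and a threshold of 0.05. The script was tested on simulated counts. DESeq2 1.42.0, limma 3.58.1 on log2(FPKM + 1) and log2(FPKM + 0.1), other scalings and filters, and fits without 1 rat were alternatives. The members, marker lists and pathway lists were chosen with earlier results of these data known. Each rat's values are given for members past the threshold, the 2 smallest p values per class in NE/Ovx against Sham and in RE/Ovx against NE/Ovx, and the highest FPKM per class. Of the other pathway genes, those past the threshold are named. Of 49 members, 41 had a RefSeq promoter on GRCr8. Rats are separate animals, with 3 per group. The study's other measurements were left out.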

Additional observations from a re-analysis of the deposited data

How the results depend on the processing

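Depth limits the low members: Acvr1c had 9 to 143 counts, and a filter of at least 10 counts in each library removed it. In brackets is the share of all tested genes called in the same fit. The count of members called in NE/Ovx against Sham, 2 in the report (1.23%), was 9 with DESeq2 (5.39%), 4 with median-of-ratios factors (1.27%), 4 with library totals (1.37%), 5 with no filter on low counts (1.29%), 1 with at least 10 counts in each library (1.21%) and 6 with NE/Ovx rat 6 and RE/Ovx rat 3 both left out (1.66%). It was 0 to 2 without 1 of the 6 rats compared (0.0613% to 1.23%; 1 without Sham rat 8, 2 without NE/Ovx rat 6 and otherwise 0). The count for RE/Ovx against Sham, 10 in the report (8.06%), was 18 with DESeq2 (10.5%), 20 with those 2 rats left out (10.4%) and 1 to 21 without 1 rat (0.701% to 11.9%). Those 2 rats were lowest for most members, so leaving them out raises the Ovx means by construction. Beyond the fits without 1 rat, Id3 in NE/Ovx against Sham passed in every alternative except the filter of at least 10 counts. It missed the threshold in the report and in every fit without 1 of the rats compared (edgeR adjusted p 0.0875 to 0.126). Members past the study's thresholds in RE/Ovx against NE/Ovx, 6 in the report (4.68% of all genes), numbered 1 to 10 without 1 rat (3.27% to 6.98%), and those in RE/Ovx against Sham, 29 in the report (23.2%), numbered 18 to 27 (17.2% to 26.6%). The median in RE/Ovx against Sham, 0.38, was 0.27 to 0.49 without 1 rat and 0.49 with those 2 rats left out. Where no cause is given, it was not tested.

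Of the named members' 72 log2 fold changes, 14 changed sign under at least 1 alternative, and each of them missed the threshold in the report. Without 1 rat, the values for NE/Ovx against Sham ran from -0.17 to 0.020 for Tgfbr3, -0.020 to 0.030 for Smad4 and -0.22 to 0.091 for Id1. Those for RE/Ovx against NE/Ovx ran from -0.11 to 0.14 for Bmp3, -0.054 to 0.21 for Bmpr2, -0.060 to 0.0058 for Smad4, -0.0052 to 0.12 for Smad5 and -0.11 to 0.29 for Bambi. Those for RE/Ovx against Sham ran from -0.23 to 0.14 for Tgfb1, -0.031 to 0.029 for Smad4, -0.19 to 0.92 for Nog, -0.029 to 0.28 for Grem1 and -0.049 to 0.13 for Ltbp1. With NE/Ovx rat 6 and RE/Ovx rat 3 left out, Tgfbr3 (0.020) and Id1 (0.091) reversed in NE/Ovx against Sham, Bmp3 (-0.015), Smad1 (0.030) and Bambi (-0.051) in RE/Ovx against NE/Ovx and Ltbp1 (-0.049) in RE/Ovx against Sham. For Smad4, RE/Ovx against NE/Ovx, the value was 0.00311 with library totals and 0.00209, 0.00212 and 0.00209 in the 3 limma fits. For Tgfb1, RE/Ovx against Sham, it was 0.031 with library totals, 0.061 with limma on log2(FPKM + 1), 0.062 with a pseudocount of 0.1 and 0.061 with FPKM of at least 1 in 3 libraries. For Smad4, RE/Ovx against Sham, it was -0.00542 with DESeq2 and -0.00407 with median-of-ratios factors.

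No paired analysis was possible because the groups share only 1 replicate number, 8, which names different rats.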
